A study of Homo sapiens with 4 samples.

Results

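The genes described here encode the proteins of the mitochondrial ribosome and were taken by name: every gene on the array whose platform symbol begins with MRPL or MRPS followed by a digit. This rule gave 80 of 20046 named genes, 51 MRPL and 29 MRPS symbols, read by 115 probes. Of the 80, 76 are protein-coding, 2 are pseudogenes (MRPL42P5 and MRPS31P5) and 2 are antisense RNAs that carry the name of a neighbour (MRPL20-AS1 and MRPL23-AS1). Expression of polyA RNA had been measured in H23, an established human lung cancer cell line, by Illumina HumanHT-12 v4 arrays, where transcripts bind to beads that carry short DNA probes. The 4 arrays were 2 of control cells made to overexpress GFP, green fluorescent protein, and 2 of cells made to overexpress SOX7, a SOXF-group transcription factor, all grown to near confluence without a named drug treatment. The labels name neither the vector nor the clones. Nothing in them tells if the pair of samples in a group came from separate cultures, so a p-value here reflects the spread between samples that may be technical repeats. The design also mentions H1299 and PC14 cells, not analysed here.

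Mitochondrial ribosomes translate the few proteins that mitochondrial DNA encodes, all of them subunits of the respiratory chain and ATP synthase. Their RNAs come from mitochondrial DNA, whereas their proteins are encoded in the nucleus, made in the cytosol and imported. The small subunit decodes the messenger RNA and the large subunit joins the amino acids and anchors the ribosome to the inner membrane. Some subunit proteins descend from bacterial ribosomal proteins and others were added in mitochondria. The names do not always give the place: MRPS30 and MRPS18A were named as small-subunit proteins and sit in the large subunit of the mammalian ribosome. MRPL27, a large-subunit protein, and MRPS36, a small protein of the 2-oxoglutarate dehydrogenase complex, were not analysed here.

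The values are log2 intensities that had been brought to the same distribution on every array, with a median of 6.26. The arrays correlated at 0.9949 within the control group, 0.9948 within the SOX7 group and 0.9898 to 0.9902 between groups over all probes. The brighter SOX7 probe read 6.18 and 6.45 in control cells and 6.53 and 6.78 in SOX7 cells and did not pass, at 0.34 (limma adjusted p = 0.0583). A second SOX7 probe differed by 0 (limma adjusted p = 0.985), and the mean of both by 0.17 (0.233). With 1 array left out, the brighter probe ran from 0.21 to 0.48 and passed without control replicate 2 (limma adjusted p = 0.00876) or SOX7 replicate 1 (0.0404). Whether either probe can read the introduced SOX7 RNA is not known, so these values are no check of the labels. Of the epithelial markers, KRT8 and KRT18 lay clearly above the array median (8.11 and 8.57 in control cells), EPCAM lay near it (6.52), and KRT19 and CDH1 lay below it. All 3 markers of lung epithelium, NKX2-1, SFTPB and NAPSA, lay below it as well (5.72 to 6.11). Of 9 markers of fibroblasts, leukocytes and endothelium, 4 passed the intensity filter and the highest mean was 6.89. KRT18 (0.45) and the fibroblast marker LUM (0.52, from 6.22 to 6.74) were higher in SOX7 cells (limma adjusted p = 0.00453 and 0.00156), and their part in the results was not tested. The fibroblast markers COL1A1 (−0.17) and DCN (−0.01) and the epithelial markers KRT8 (0.22) and EPCAM (0.14) did not pass. KRT19 (0.24) and CDH1 (−0.2) lay under the intensity filter. Each gene is represented by its brightest probe, and genes whose mean lay under the median of all probe means (6.25) were left out of the test. Of the 80 symbols, 79 were tested, and MRPL23-AS1 (6.01 in control and 6.03 in SOX7 cells) was not.

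Most mitoribosomal genes did not pass the test. Against control cells, 8 of the 79 were higher and 3 lower in SOX7 cells at a Benjamini-Hochberg adjusted p of 0.05 in limma's moderated test over all 12804 genes, and 68 did not pass. The share called, 13.9%, stood beside 18.8% of all genes, of which 8.98% were higher and 9.83% lower. The unadjusted limma p was under 0.05 for 26 members. The share of all genes under that unadjusted cut-off is not given here, so nothing about the members is read from this count. The largest difference, in MRPS9, was 1.59-fold. For 67 of the 68 that did not pass, the 95% confidence interval of the difference lay inside 1.5-fold in either direction, and standard errors on the log2 scale ran from 0.0855 to 0.119. The exception was MRPS16, with an interval of −0.62 to −0.1. Arrays of the groups did not overlap in 49 members (62%), 31 with SOX7 higher and 18 with SOX7 lower, beside 58.5% of all genes, 29.6% higher and 29% lower. Whether the ribosomal content of each cell differed cannot be told from these relative levels.

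**Figure D1:**
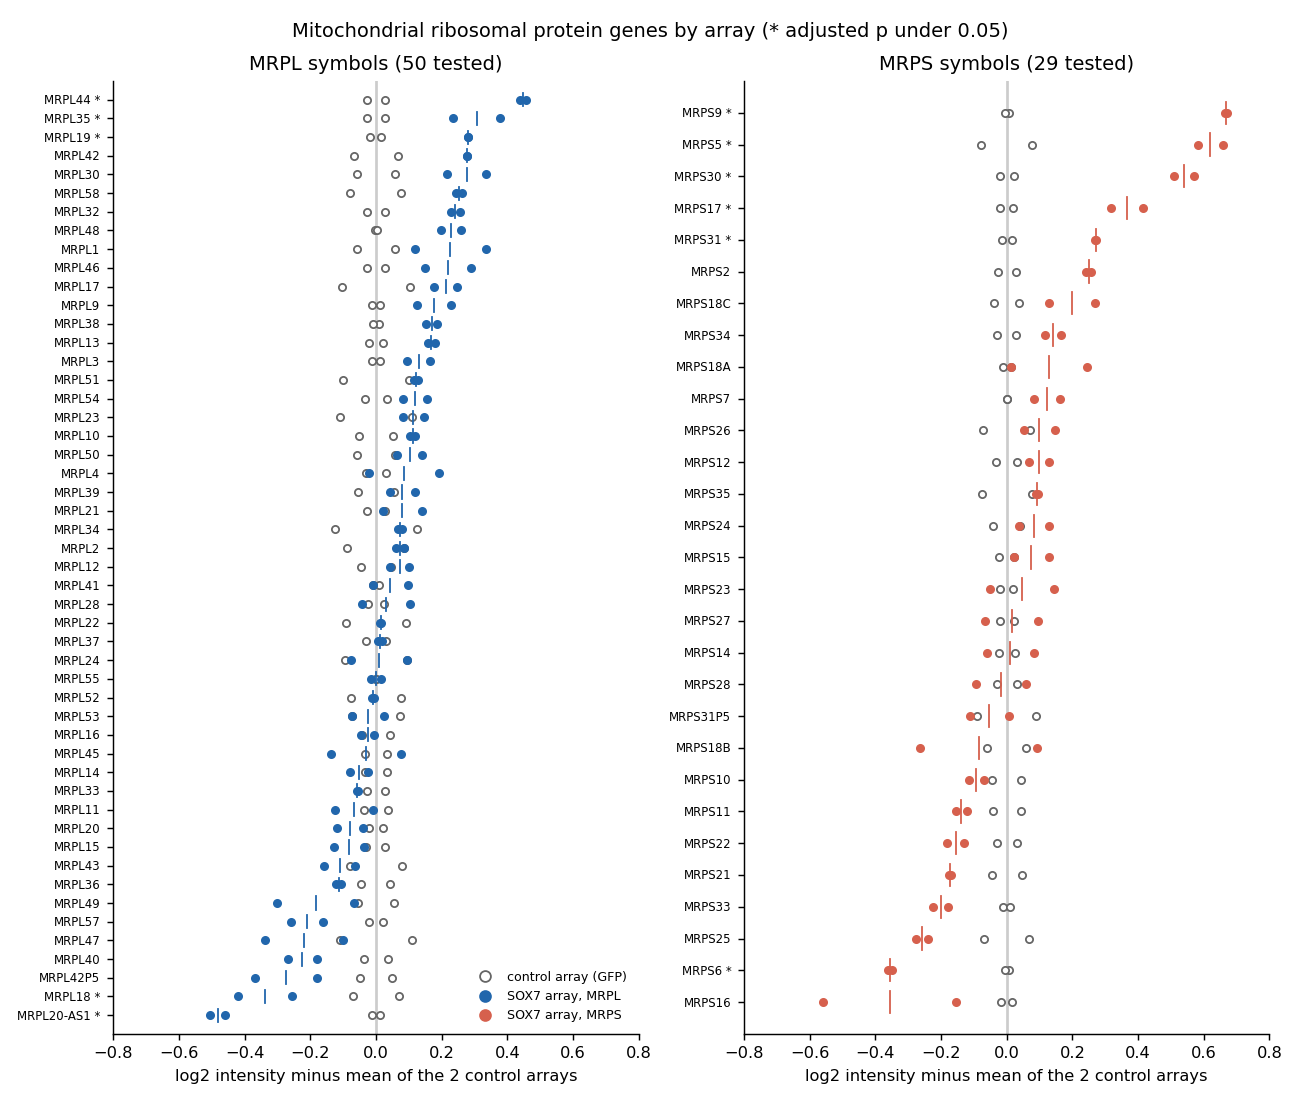
Log2 intensity of the 79 tested mitoribosomal symbols on each array, minus the mean of the 2 control arrays, with MRPL symbols on the left and MRPS symbols on the right. Open points are control arrays, filled points SOX7 arrays, short vertical lines the SOX7 mean, and asterisks mark an adjusted p under 0.05; most filled points lie within 0.3 of 0, and MRPS9, MRPS5 and MRPS30 lie farthest to the right.

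The 3 largest rises were in genes with small-subunit names. MRPS9, the counterpart of a bacterial small-subunit protein, read 9.62 and 9.61 in the control arrays and 10.28 and 10.28 in the SOX7 arrays. It rose by 0.67 on the log2 scale (SE 0.0855, limma adjusted p = 0.000239), and both pairs of arrays lay tightly together. MRPS5, which lines the channel by which messenger RNA enters, read 10.04 and 10.2 in control and 10.78 and 10.7 in SOX7 cells. The control arrays differed more here, and the rise of 0.62 (SE 0.0927, limma adjusted p = 0.000686) was several times that difference. MRPS30, part of the central protuberance of the large subunit despite its name, read 11.63 and 11.59 in control and 12.12 and 12.18 in SOX7 cells. Its rise of 0.54 (SE 0.0868, limma adjusted p = 0.00113) again left the groups far apart. MRPS9, MRPS5, MRPS30, MRPL44 and MRPL20-AS1 are the 5 members whose calls held in each of the 4 fits that left out 1 array.

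The other 5 rises were smaller. MRPL44, a large-subunit protein related to the ribonuclease III enzymes, read 9.22 and 9.16 in control and 9.65 and 9.63 in SOX7 cells, a rise of 0.45 (limma adjusted p = 0.00362). Its second probe, dimmer than the filter, differed by 0.1, and the mean of both by 0.27 (limma adjusted p = 0.0472). MRPS17, a small-subunit protein with a bacterial counterpart, read 10.9 and 10.86 against 11.2 and 11.29, a rise of 0.37 (limma adjusted p = 0.0131). Without SOX7 replicate 2 its difference was 0.32 and did not pass (limma adjusted p = 0.0858). MRPL35 and MRPL19 are large-subunit proteins with bacterial counterparts, and MRPS31 is a small-subunit protein without one. MRPL35 read 10.57 and 10.51 in control and 10.78 and 10.92 in SOX7 cells, a rise of 0.31 (limma adjusted p = 0.0353). Its other 2 probes above the filter differed by −0.03 and 0.02, so the rise was seen with 1 of 3 probes, and the mean of the probes differed by 0.1 (limma adjusted p = 0.403). Left out singly, control replicate 1, control replicate 2 and SOX7 replicate 2 each ended the call of MRPL35 (adjusted p = 0.0589, 0.12 and 0.198). MRPL19 read 10.08 and 10.11 against 10.37 and 10.37, a rise of 0.28 (limma adjusted p = 0.0401). MRPS31 read 10.25 and 10.22 against 10.5 and 10.51, a rise of 0.27 (limma adjusted p = 0.0461). For MRPL19 and MRPS31 the groups did not overlap, yet neither passed when any of the 4 arrays was left out, with adjusted p-values of 0.0896 to 0.142 for MRPL19 and 0.105 to 0.15 for MRPS31. On GRCh38.p14, 5 of the 8 genes that rose lie on chromosome 2: MRPL19 at 75646783 to 75662206, MRPL35 at 86199433 to 86213794, MRPS5 at 95085369 to 95122003, MRPS9 at 105038069 to 105099960 and MRPL44 at 223950854 to 223967714. MRPS30 lies on chromosome 5 (44808947 to 44815514), MRPS17 on chromosome 7 (55951877 to 55956500) and MRPS31 on chromosome 13 (40729128 to 40771190).

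Among the 3 symbols that fell, 2 are protein-coding. MRPS6, a small-subunit protein with a bacterial counterpart, read 13 and 12.99 in control and 12.65 and 12.64 in SOX7 cells. It fell by 0.36 on the log2 scale (SE 0.0856, limma adjusted p = 0.0132), and the arrays of each group were nearly equal. MRPS6 lies on chromosome 21 (34073578 to 34143030) and MRPL18 on chromosome 6 (159789812 to 159798429). Without SOX7 replicate 1 (−0.36) or SOX7 replicate 2 (−0.35), MRPS6 did not pass. MRPL18, a protein of the central protuberance, read 11.22 and 11.08 in control and 10.73 and 10.89 in SOX7 cells, and fell by 0.34 (SE 0.0965, limma adjusted p = 0.0296). Its second probe differed by −0.25 (limma adjusted p = 0.0851 when every probe was tested separately). The call ended without control replicate 1 or SOX7 replicate 1 (limma adjusted p = 0.145 and 0.175). The antisense RNA MRPL20-AS1 fell furthest, from 11.23 and 11.2 to 10.76 and 10.71, a difference of −0.48 (SE 0.0861, limma adjusted p = 0.00221). MRPL20-AS1 (chromosome 1, 1399530 to 1402046, GRCh38.p14) overlaps the end of MRPL20 (1401909 to 1407293), which lies on the opposite strand. MRPL20 itself read 10.85 and 10.89 in control and 10.83 and 10.75 in SOX7 cells, with a difference of −0.08 that did not pass (limma adjusted p = 0.592) and 0.01 for its second probe. Whether the array's probe tells the strands apart was not tested.

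**Figure D2:**
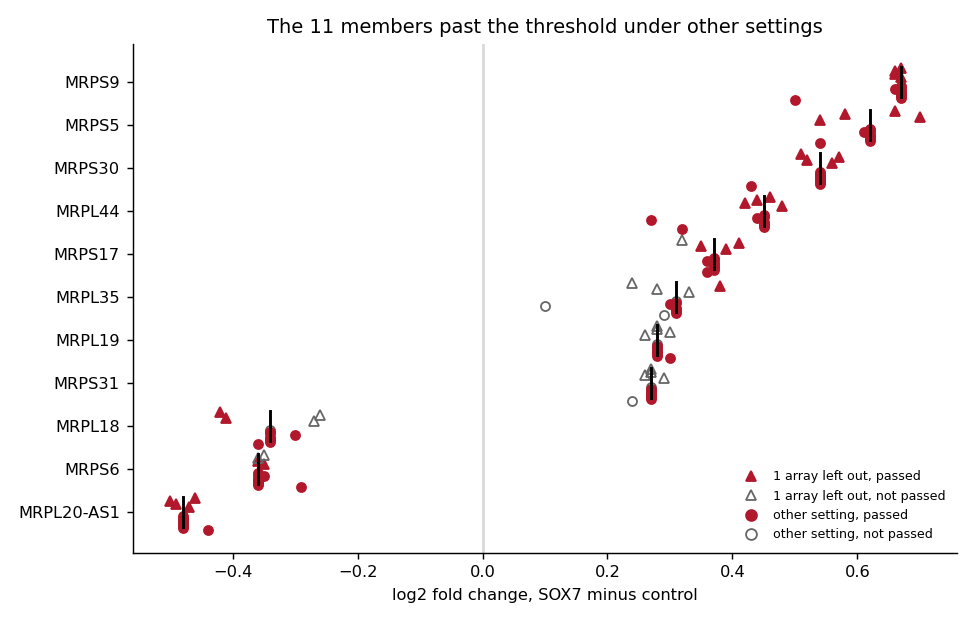
Log2 fold change (SOX7 minus control) of the 11 members past the threshold under every setting tried except single probes, with the reported value as a black line. Triangles leave out 1 array, circles are other settings, and filled symbols passed an adjusted p of 0.05; MRPS9, MRPS5, MRPS30, MRPL44 and MRPL20-AS1 have filled symbols only, and MRPL19 and MRPS31 lose the call under each setting that leaves out an array.

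To show the upstream sequence of members that moved in opposite directions, the bases before the start site of 3 that rose and 2 that fell are printed from RefSeq on GRCh38.p14, 5′ to 3′ on the gene's strand. Capitals mark the Sp1-type letters GGGCGG, the CCAAT box letters CCAAT and the ETS-type letters CCGGAAG on either strand. The windows are chr2:105037819-105038068 on the + strand for MRPS9, chr5:44808697-44808946 on the + strand for MRPS30 and chr13:40771191-40771440 on the − strand for MRPS31. They are chr21:34073328-34073577 on the + strand for MRPS6 and chr6:159789603-159789811 on the + strand for MRPL18, whose window ends at the start of its divergent neighbour TCP1.
MRPS9: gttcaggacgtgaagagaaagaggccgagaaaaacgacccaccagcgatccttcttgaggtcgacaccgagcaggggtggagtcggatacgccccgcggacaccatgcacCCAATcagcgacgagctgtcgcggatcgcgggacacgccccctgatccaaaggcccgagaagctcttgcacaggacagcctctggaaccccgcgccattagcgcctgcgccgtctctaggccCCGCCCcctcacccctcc
MRPS30: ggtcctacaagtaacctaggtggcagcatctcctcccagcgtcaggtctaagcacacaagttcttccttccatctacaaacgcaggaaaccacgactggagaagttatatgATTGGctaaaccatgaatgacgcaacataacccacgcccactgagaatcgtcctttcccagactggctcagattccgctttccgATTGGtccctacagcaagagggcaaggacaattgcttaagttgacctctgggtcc
MRPS31: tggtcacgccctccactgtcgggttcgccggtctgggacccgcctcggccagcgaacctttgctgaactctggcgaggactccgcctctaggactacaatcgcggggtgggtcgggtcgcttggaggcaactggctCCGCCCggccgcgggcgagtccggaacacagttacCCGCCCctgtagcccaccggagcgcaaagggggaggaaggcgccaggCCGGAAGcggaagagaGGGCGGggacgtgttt
MRPS6: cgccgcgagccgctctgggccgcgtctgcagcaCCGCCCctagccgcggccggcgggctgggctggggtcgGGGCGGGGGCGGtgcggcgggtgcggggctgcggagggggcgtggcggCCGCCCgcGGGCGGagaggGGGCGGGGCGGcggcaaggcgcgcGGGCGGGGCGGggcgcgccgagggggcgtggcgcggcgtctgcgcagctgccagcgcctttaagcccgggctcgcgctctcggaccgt
MRPL18: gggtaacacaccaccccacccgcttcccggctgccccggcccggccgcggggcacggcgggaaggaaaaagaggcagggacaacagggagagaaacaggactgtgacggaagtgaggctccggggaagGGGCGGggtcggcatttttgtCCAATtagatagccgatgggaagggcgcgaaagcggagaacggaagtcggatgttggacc

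The windows look unlike each other. MRPS6 holds many Sp1-type matches, partly overlapping, MRPS30 holds none but has a pair of CCAAT boxes, and of these 5 the MRPS31 window alone holds the ETS-type letters. Over the 250 bases upstream of 68 protein-coding members with a RefSeq promoter, CCGGAAG or its reverse complement stood in 22 (32.4%), beside 11.8% of the 15843 promoters of all protein-coding genes. These are letters bound by ETS factors such as GABP, which is known to act on many nuclear genes of mitochondria. The median change of the 22 was 0.108, with 1 that rose and 0 that fell, and that of the other 46 was 0.058, with 6 that rose and 2 that fell, beside 18.8% called among all genes. The Sp1-type letters stood in 55.9% of members and 56% of all, and CCAAT in 26.5% and 34.5%. The palindromic NRF1 motif, of a factor known to act on many such genes, stood in 1.47% of members and 1.48% of all. AAGATGGCG, letters of YY1, stood in 4.41% and 0.751%, the E-box CACGTG in 8.82% and 7.84%, and AACAAT, letters that SOX factors can bind, in 7.35% and 6.14%. The ATF4-type letters TGATGNAA stood in 1.47% and 2.21%, and the cyclic AMP element TGACGTCA in 0% and 2.32%. Of the 11 called members, 9 (7 that rose and 2 that fell) had a promoter searched, without MRPL35 and MRPL20-AS1, and none of the 9 held the NRF1, YY1, E-box, SOX, ATF4-type or cyclic AMP letters in this window. A match is a run of letters and not a measured site.

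Large- and small-subunit genes had nearly equal median changes. Of 50 tested MRPL symbols, 3 rose and 2 fell, with a median change of 0.073. Of 29 tested MRPS symbols, 5 rose and 1 fell, with a median of 0.075, and the median over all 12804 genes was 0.003. The share called was 10% of MRPL and 20.7% of MRPS symbols, beside 18.8% of all genes. The MRPL median stood 0.079 and 0.063 above the control mean on the 2 SOX7 arrays, and the MRPS median 0.023 and 0.097. The MRPL median was thus 0.055 higher than the MRPS median on SOX7 replicate 1 and 0.034 lower on SOX7 replicate 2, and the sign of the difference between subunits depended on the array. Genes of a subunit are not replicates, and the difference of the medians, −0.0026, was given no test. Changes spread more widely over the MRPS symbols (SD over genes 0.257) than over the MRPL symbols (0.181), beside 0.284 over all genes. With the subunit taken from the structure and non-coding symbols left out, 4 of 50 large-subunit genes rose and 1 fell, and 4 of 26 small-subunit genes rose and 1 fell. The medians were then 0.077 and 0.061, and the shares called 10% and 19.2%.

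Calls fell on genes with and without a bacterial counterpart, beside 8.98% higher and 9.83% lower among all genes. In the large subunit, 2 of 30 genes with a bacterial counterpart rose and 1 fell (median 0.074), and 2 of 20 without one rose and 0 fell (median 0.092). In the small subunit, 3 of 17 with a counterpart rose and 1 fell (median 0.075), and 1 of 9 without one rose and 0 fell (median 0.046). These splits were not tested against each other.

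By place in the large subunit, the groups are small, and 18.8% of all genes were called, so these counts single out no site. All 5 proteins of the stalk that recruits translation factors, and of its base, lay between −0.07 and 0.12, and none passed. MRPL12, the stalk protein that also binds the mitochondrial RNA polymerase, read 9.77 and 9.68 in control and 9.83 and 9.77 in SOX7 cells, overlapping groups (limma adjusted p = 0.625). Of 6 proteins around the exit tunnel, through which the new chain leaves, 0 passed, with values from −0.22 in MRPL47 to 0.21 in MRPL17. The 2 probes of MRPL47 had opposite signs (−0.22 and 0.29). The 9 genes of the central protuberance ran from −0.34 in MRPL18 to 0.54 in MRPS30, and those 2 passed (22.2%). MRPL41, also described as a partner of BCL2 in apoptosis, read 11.22 and 11.2 in control and 11.31 and 11.2 in SOX7 cells, with no separation of the groups (0.04, limma adjusted p = 0.781). MRPS18A, the other protein of the large subunit with a small-subunit name, differed by 0.13 (95% confidence interval −0.08 to 0.34, limma adjusted p = 0.404), and only SOX7 replicate 2 stood clear of the control arrays. In the small subunit, MRPS12, of the decoding centre, differed by 0.1 (limma adjusted p = 0.482), and MRPS24, beside MRPS5 at the entry of the messenger RNA, by 0.08 (limma adjusted p = 0.575).

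**Figure D3:**
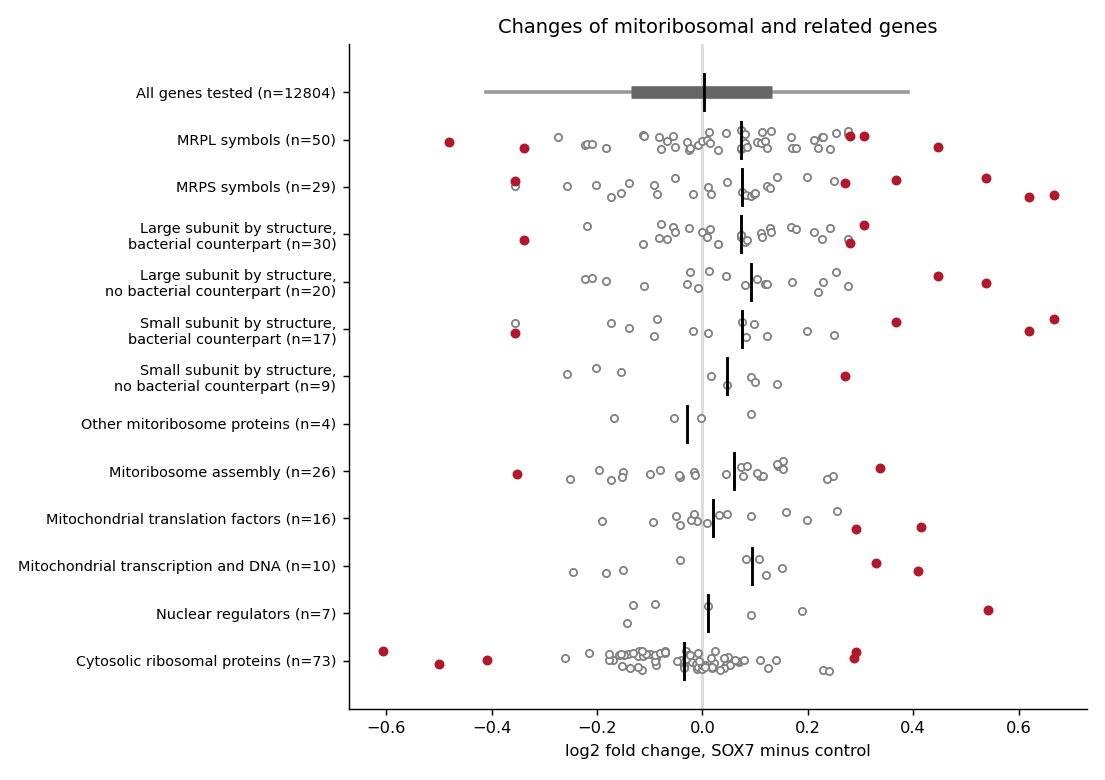
Log2 fold change (SOX7 minus control) of single genes by group, with filled points for an adjusted p under 0.05, open points for genes that did not pass and a black line at each median. All genes tested are drawn as the 25th to 75th (thick) and 5th to 95th (thin) percentiles; the MRPL and MRPS medians nearly coincide, at 0.073 and 0.075.

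Some members lay just short of the threshold, named here after their values were seen. MRPL42 (0.28, limma adjusted p = 0.0509), a large-subunit protein, read 9.58 and 9.72 in control and 9.93 and 9.93 in SOX7 cells. MRPL30 (0.28, limma adjusted p = 0.0566) read 8.15 and 8.03 against 8.31 and 8.42, and its second probe differed by 0.27. MRPS16 (−0.36, limma adjusted p = 0.0577) read 10.56 and 10.59 against 10.42 and 10.02, so that the SOX7 arrays were far from each other. Of 30 further probes above the filter, for 24 members, 19 had the sign of the brightest probe and 11 the opposite sign. The 1 of the 30 that passed on its own is the MRPL43 probe described next. MRPL43 differed by −0.11 with its brightest probe, while this dimmer probe read 9.32 and 9.46 in control and 9.05 and 9.05 in SOX7 cells, a difference of −0.34.

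By chromosome, the calls were uneven. Of the 8 members on chromosome 2, 5 rose (MRPL19, MRPL35, MRPS5, MRPS9 and MRPL44) and 0 fell, and the others were MRPL30 (0.28), MRPL33 (−0.06) and MRPL53 (−0.02). This grouping was noticed in the data and not fixed beforehand. Of the 819 genes tested on chromosome 2, 17% rose and 7.81% fell, with a median of 0.079, beside 8.98% and 9.83% of all genes. The remaining 71 members lie on other chromosomes, where MRPS30, MRPS17 and MRPS31 rose. Genes around some of the risers were higher too: the median change over the member and up to 50 genes on each side was 0.16 for MRPS9, 0.13 for MRPL44, 0.11 for MRPS30 and 0.08 for MRPS5, against −0.02 for MRPL19 and 0.02 for MRPL35. With that median removed, MRPS9 differed by 0.5 (limma adjusted p = 0.00178), MRPS5 by 0.54 (0.0019), MRPS30 by 0.43 (0.00526) and MRPL44 by 0.32 (0.0259), and all 4 still passed. MRPL35 (0.29, limma adjusted p = 0.0514) and MRPS31 (0.24, limma adjusted p = 0.0735) then did not. In the other direction, MRPL58 had a neighbour median of −0.04. It went from 0.25 (limma adjusted p = 0.0757) to 0.29 (0.048) and so gained a call. High neighbour medians were not limited to members that passed: MRPL42 had 0.18, MRPL30 0.14 and MRPS35 0.11. With it removed, MRPL42 differed by 0.1 (limma adjusted p = 0.495), MRPL30 by 0.13 (0.37) and MRPS35 by −0.02 (0.919). The number of copies of these regions in the cells was not measured.

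**Figure D4:**
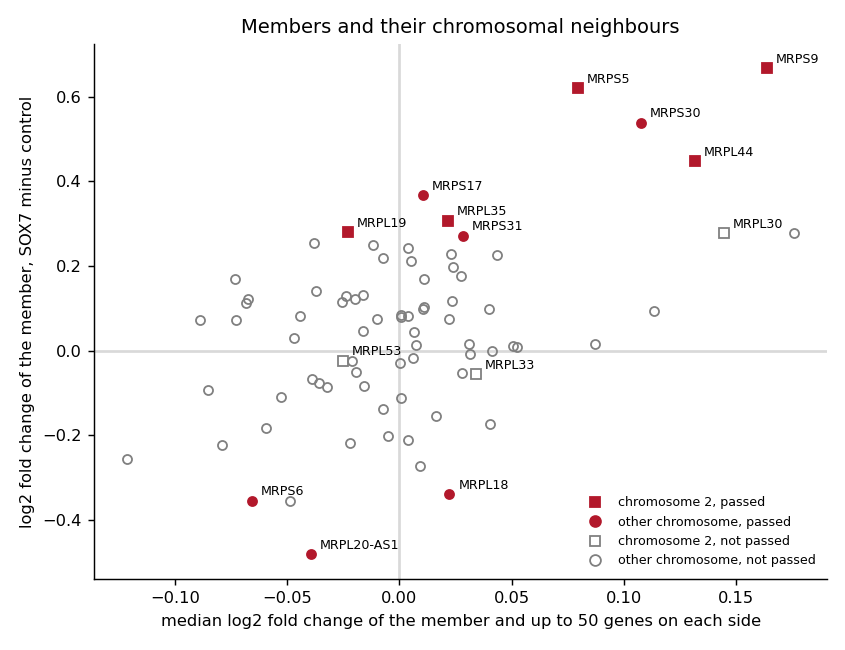
Log2 fold change (SOX7 minus control) of each tested member against the median log2 fold change over the member and up to 50 genes on each side of it. Squares are members on chromosome 2 and filled symbols passed an adjusted p of 0.05; neighbour medians above 0.1 are those of MRPS9, MRPL44 and MRPS30, which passed, and of MRPL42, MRPL30 and MRPS35, which did not.

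Several members start head to head with another gene. Within 1000 bases, 22 members have a divergent neighbour, and in 9 of 17 distinct pairs with both genes tested the changes had the same sign. MRPL18 starts 210 bases from TCP1, a subunit of the cytosolic chaperonin TRiC, and the difference of TCP1 was 0.17 (limma adjusted p = 0.188) where MRPL18 fell. MRPL46 and MRPS11, a large- and a small-subunit gene, start 320 bases apart on chromosome 15. MRPL46 read 9.96 and 9.91 in control and 10.23 and 10.09 in SOX7 cells, and MRPS11 read 10.76 and 10.68 against 10.56 and 10.6. Their differences of 0.22 and −0.14 had opposite signs and neither passed (limma adjusted p = 0.118 and 0.307). In 3 of the 17 pairs the neighbour passed, beside 18.8% called among all genes. They were MITD1 beside MRPL30 (0.36), HIRA beside MRPL40 (−0.37) and PIERCE1 beside MRPS2 (−0.52).

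Most genes that serve the same ribosome did not pass either. Of 4 ribosomal proteins known by other names, 0 rose and 0 fell, beside 18.8% called among all genes (median −0.028). Among them, DAP3, a small-subunit GTPase first described as a death-associated protein, read 11.41 and 11.45 in control and 11.52 and 11.53 in SOX7 cells (0.09, limma adjusted p = 0.502). Of 26 tested genes for assembly and ribosomal RNA modification, 1 rose and 1 fell (median 0.059). TFB1M, the methyltransferase that modifies the small-subunit RNA, read 8.41 and 8.61 against 8.84 and 8.86 (0.34, limma adjusted p = 0.028). MPV17L2, an inner membrane protein linked to ribosome assembly, read 7.38 and 7.39 against 7.09 and 6.98 (−0.35, limma adjusted p = 0.0165). Of 16 translation factors and activators, 2 rose and 0 fell (median 0.02). They were the release factor gene MTRF1L (0.42, limma adjusted p = 0.00573) and TSFM, which recharges the elongation factor (0.29, limma adjusted p = 0.0364). The second MTRF1L probe differed by 0.24 and did not pass.

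Among 10 genes for mitochondrial transcription and DNA maintenance, 2 rose and 0 fell (20% called, median 0.095), beside 18.8% called among all genes. TFAM, which packages mitochondrial DNA and starts its transcription, read 11.16 and 10.93 in control and 11.34 and 11.41 in SOX7 cells (0.33, limma adjusted p = 0.0377). TFB2M, the initiation factor of the mitochondrial RNA polymerase, read 10.13 and 10.37 against 10.65 and 10.66 (0.41, limma adjusted p = 0.0133), and its second probe differed by 0.22 and did not pass (0.131). In TFAM, TFB1M and TFB2M the control arrays lay further apart than the SOX7 arrays. Of 7 tested nuclear regulators of mitochondrial biogenesis, 1 rose and 0 fell (14.3% called, median 0.011). That gene was GABPB1, the partner subunit of the ETS factor GABPA. It read 8.25 and 8.3 in control and 8.83 and 8.8 in SOX7 cells (0.54, limma adjusted p = 0.00103). A second probe differed by 0.32 and passed (limma adjusted p = 0.0267), and another by 0.29 and did not (0.0996). The mean of all GABPB1 probes, with those under the filter included, differed by 0.34 (limma adjusted p = 0.0169). TFB1M, TFAM and TFB2M did not pass when either SOX7 array was left out, nor when a control array was: replicate 1 for TFB1M (limma adjusted p = 0.192) and TFB2M (0.1), replicate 2 for TFAM (0.251). TSFM did not pass when any of the 4 arrays was left out (limma adjusted p = 0.0714 to 0.167), and with the median over its chromosomal neighbours removed it differed by 0.17 (0.222). MPV17L2 did not pass without SOX7 replicate 2 (limma adjusted p = 0.108).

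**Figure D5:**
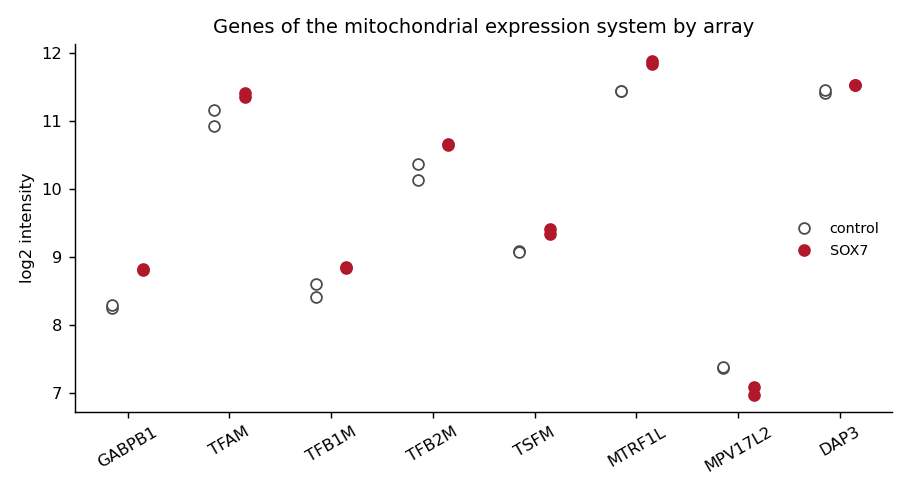
Log2 intensity on each array of the genes of assembly, translation, transcription and regulation that passed, and of DAP3, which did not. Open points are control and filled points SOX7 arrays; MPV17L2 is lower in SOX7 cells, and GABPB1, TFAM, TFB1M, TFB2M, TSFM and MTRF1L are higher.

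Cytosolic ribosomal protein genes, taken by symbol with paralogues such as RPL7L1, RPL26L1, RPL39L and RPS27L, had a median below 0. Many were brighter than the brightest mitoribosomal member, as with RPL41 (14.94 in control cells) beside MRPS12 (13.14), and the effect of brightness was not tested. Of 73 tested, 2 rose and 3 fell (6.85%), with a median change of −0.035, beside 13.9% and 0.073 for the mitochondrial genes and 18.8% and 0.003 for all genes; the difference between the families was not tested. RPL36A (−0.61, limma adjusted p = 0.000511), RPL13 (−0.5, limma adjusted p = 0.00179) and RPL22 (−0.41, limma adjusted p = 0.00636) fell, and RPL4 and RPL7A (each 0.29) rose. RPL36A (−0.26) and RPL13 (−0.17) did not pass for the mean of all their probes. For RPL36A that mean took in signal under the intensity filter, since only its brightest probe lay above it. A second RPL13 probe, above the filter, differed by 0.16. RPL4 did not pass without control replicate 1 (adjusted p = 0.185) or without either SOX7 array. Many cytosolic ribosomal genes have near-identical pseudogenes, so their probes may read more than 1 transcript, as may those of MRPL42 and MRPS31, whose pseudogene symbols MRPL42P5 (−0.27) and MRPS31P5 (−0.05) lay close to the array median and did not pass.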

How the data were processed

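Expression of 48107 probes was read on 4 Illumina HumanHT-12 v4 arrays of H23 cells, 2 per group. The deposited values are log2 intensities that the authors had quantile normalized, since the sorted values of the arrays differ by at most 0.000683; the software, background correction and detection calls were not stated in the sources used here. The platform annotation gave 1 gene to 30113 probes, several to 8 and none to 17986, and 30074 gene identifiers matched RefSeq (GRCh38.p14). The brightest probe per gene was kept and genes under the median of all probe means left out. Two-sided tests of limma 3.58.1 in R 4.3.3 compared the groups (2 residual and 11.7 moderated degrees of freedom). P-values were adjusted by Benjamini-Hochberg across 12804 genes, the threshold was 0.05 and intervals are 95%. The fit was checked on simulated data. The number of arrays limits the precision.

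Named genes were all members past the threshold, MRPS30, MRPS18A, MRPL12, MRPL41 and DAP3, up to 4 past the threshold per related list, and SOX7. RPL7A, region members, genes near the threshold, divergent neighbours and chromosome 2 genes were named after their values were seen. The members and lists were chosen with earlier results of these data known. Same-numbered control and SOX7 arrays did not deviate together (r = −0.0173 across genes), so the numbers were not taken as pairs. Alternatives were other intensity filters, an offset of 16, the mean of probes, every probe, a trended and robust prior, the replicate number as a block, quantile normalization, median centring, removal of the median over a gene and up to 50 neighbours on each side, other thresholds, pseudogenes left out, subunits by structure and leaving out each array; counting only protein-coding members was added after seeing the data.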

Additional observations from a re-analysis of the deposited data

How the results depend on the processing

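The count of members that rose (8) was 5 without an intensity filter, 14 with a filter at the 75th percentile, 14 with a trended and robust prior, 4 at an adjusted p of 0.01 and 14 at 0.1, and ran from 4 (without SOX7 replicate 2) to 6 when 1 array was left out. The count that fell (3) was 6 at the 75th percentile, 5 with the trended and robust prior, 5 with the replicate block, 1 at 0.01 and 6 at 0.1, and 2 to 3 with 1 array left out. All 11 calls remained with the 75th percentile filter, the offset, the trended and robust prior and the replicate block. They remained with quantile normalization and median centring too. The arrays already shared the same distribution, so those 2 settings could not move a call and are no check. Without a filter MRPL18, MRPL19, MRPL35 and MRPS31 did not pass. The block added MRPL30, MRPL42, MRPL42P5 and MRPS16 (10 higher), gave SOX7 an adjusted p of 0.00906 and changed no other call of a named gene. The share of all genes called moved as well, from 8.85% without a filter to 33.4% at the 75th percentile. Fewer genes tested at the 75th percentile is part of its construction. This share was 22.8% with the trended and robust prior and 22.1% with the replicate block, beside 18.8% in the main fit. It was lower than in the main fit whenever 1 array was left out. For the thresholds of 0.01 and 0.1 it is not given, so those counts show nothing particular to the members. The MRPL minus MRPS median ran from −0.0341 to 0.0698 with 1 array left out (0.0698 without control replicate 1, medians 0.104 and 0.034). Among the genes named by rule, signs turned for 1 MRPL35 probe (−0.03), 1 RPL13 probe (0.16) and MRPL41 without SOX7 replicate 1 (−0.01). Over all members, 11 further probes had the opposite sign. The MRPL minus MRPS median turned from −0.0026 to 0.0284 with the neighbour median removed and to 0.016 with subunits by structure. The cause was not tested. With no detection calls used, signals near the array median, as for both pseudogenes, were not separated from background.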
